A study of Mus musculus with 8 samples.

Results

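The 9 genes described here encode MYC, its partner MAX and the proteins that compete for that partner, and they were followed through mouse prostate tumor formation in WT prostate, prostatic intraepithelial neoplasia (PIN) and prostatic adenocarcinoma (PCa). They were found by their symbols, Myc, Mycn, Max, Mxd1, Mxd3, Mxd4, Mxi1, Mnt and Mlx, among the 27036 genes of the count table, and all 9 were present. Bulk RNA-seq covered 3 WT, 3 PIN and 2 PCa tissues, with 1 library each. The WT tissue is given as normal prostate in the labels, and by the study's methods it came from age- and sex-matched mice that carried the mTmG reporter and Osr1-Cre without the transgene. PIN and PCa tissue came from mice in which Osr1-Cre switched on a transgene at the Rosa26 locus, opposite an mTmG reporter allele. Cre was thus present in all groups, was driven by Osr1, a gene of the embryonic urogenital tract, and marked all cells descended from those that expressed it. The mice were of mixed strain background, no ages are given in the labels, and the RNA of the transgene itself was not analysed here.

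MYC proteins are basic helix-loop-helix leucine zipper factors that bind DNA as a pair with MAX and raise transcription of genes for growth, ribosome production and metabolism. MAX also pairs with the MXD proteins, with MXI1 and with MNT, and these pairs bring the SIN3 and histone deacetylase corepressor to the same DNA element, the E-box CACGTG. MLX is a MAX-like protein that pairs with some MXD proteins, with MNT and with the glucose-responsive MONDO factors. MYC is a known driver of prostate cancer and a target gene of β-catenin, and the study followed it as such in these tumors.

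In PCa, a difference of Myc RNA from WT was not detectable. Mxd4 RNA was lower in both PCa libraries than in all WT and PIN libraries, at an unadjusted p under 0.05 against WT. Mxd3 RNA was higher in both PCa libraries than in all others, but it passed the filter on low values through these libraries and 1 PIN library, so it had to be high in PCa to be tested at all and its test is no support. None of the 8 genes that could be tested was called in any comparison. A call needed an adjusted p under 0.05 in the quasi-likelihood test of edgeR (Benjamini-Hochberg method over 14034 genes) together with a log2 fold change beyond 1 in either direction. Levels are given in CPM (counts scaled per library by the trimmed mean of M-values to a common size of 1000000). The tested genes were those with more than 1 CPM in at least 2 libraries, and Mycn did not pass this filter. For the filter alone, CPM were taken from total counts, before scaling by the trimmed mean of M-values. In PIN against WT, 0 of 8 genes were called, beside 0% of all tested genes. At an unadjusted p under 0.05 there were 0 of 8, beside 3.51% of all genes. In PCa against WT, 0 of 8 were called, beside 8.54% of all genes, and 2 of 8 (Mxd3 and Mxd4) had an unadjusted p under 0.05, beside 27.5%. In PCa against PIN, 0 of 8 were called, beside 5.72%, and 0 of 8 had an unadjusted p under 0.05, beside 22.8%. Without the fold limit there were 0 of 8 against WT in PCa, beside 8.99%, and 0 of 8 against PIN, beside 5.86%. DESeq2 and limma-trend also called 0 of these genes in each comparison, while DESeq2 called 0.278% of all genes for PIN over WT, 17.7% for PCa over WT and 14.1% for PCa over PIN, and limma-trend called 0.00713%, 9.53% and 7.18%. The comparisons with PCa share their 2 PCa libraries.

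The PCa libraries stood apart from the others, and from each other, in markers of several cell types. Total counts ranged from 21751803 to 29730420 over the 8 libraries. Summed CPM of 5 smooth muscle markers was 1602 to 4174 in WT, 2759 to 5006 in PIN and 16.5 to 27.8 in PCa, with 5 of 5 called lower in PCa against WT. Summed CPM of 4 skeletal muscle markers was 64.7 to 201 in WT, 53.3 to 262 in PIN and 0.418 to 0.514 in PCa, with 2 of 2 tested called lower. The 6 luminal markers summed to 10562 to 32949 CPM in WT, 11912 to 18954 in PIN and 3123 to 3463 in PCa, a sum carried by Pbsn, at 6552 to 23968 CPM in WT and 8.53 and 60.8 CPM in PCa 1 and 2. Of these 6 markers 1 was called lower in PCa against WT, and Krt8 was at 198, 975 and 209 CPM in WT and 453 and 333 CPM in PCa. The 4 basal markers summed to 167 to 216 CPM in WT, 178 to 387 in PIN, and 604 in PCa 1 and 27.4 in PCa 2, and the 6 leukocyte markers to 23.5 to 61.2 CPM in WT, 37.5 to 81.2 in PIN, and 121 and 14.3 in PCa 1 and 2. The 6 seminal vesicle genes summed to 14780 CPM in WT 1, to at most 28.0 in the other WT libraries and PIN, and to 3730 and 285 in PCa 1 and 2. The 10 proliferation markers summed to 102 to 106 CPM in WT, 99.8 to 173 in PIN and 717 and 719 in PCa. The part of these shifts in the results below was not tested, and in bulk tissue fewer cells of a type cannot be told apart from less RNA per cell. The library numbers in the labels form 3 series, the first holding WT 1, the next WT 2 and 3, and the last every PIN and PCa library. If these series are batches, a WT comparison cannot separate batch from condition, so the 2 cannot be told apart.

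In mm9, the build of the counts, Myc lies on chromosome 15 (chr15:61816946-61821929, plus strand) and Mycn on chromosome 12 (chr12:12942902-12948720, minus strand), which also holds Max (chr12:78038256-78063235, minus strand). The repressor genes are Mxd1 (chr6:86597038-86619153, minus strand), Mxd3 (chr13:55426529-55431119, minus strand), Mxd4 (chr5:34516536-34530369, minus strand), Mxi1 (chr19:53384996-53450300, plus strand) and Mnt (chr11:74644422-74659227, plus strand). Mlx (chr11:100948591-100953521, plus strand) is on the same chromosome as Mnt. By the annotation, 3 of the genes overlap a gene of the opposite strand: Mxd3 overlaps Prelid1 by 104 bases, Mxi1 overlaps Gm10197 by 201 bases and Mlx overlaps Psmc3ip by 385 bases. The sources used here do not say whether reads were counted by strand, so reads from these overlaps may be shared.

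Because pairs of MAX or MLX bind CACGTG, the 250 bases before the transcription start were searched for this palindrome in the RefSeq table of promoters (GRCm38.p6, not the mm9 of the counts). Of the 9 genes, 8 had at least 1 window and Myc had none. CACGTG was in 3 of the 10 windows of these genes, 1 each of Mxd4, Mnt and Mlx, and in 1978 of all 32851 windows (6.02%). It began 219, 123 and 40 bases before the start of Mxd4, Mnt and Mlx. These 3 windows are shown 5′ to 3′ as the genes that carry the element of their own protein network, with CACGTG in capitals. A match describes the letters only and does not show binding.
Mxd4, chr5:34187711-34187960, minus strand: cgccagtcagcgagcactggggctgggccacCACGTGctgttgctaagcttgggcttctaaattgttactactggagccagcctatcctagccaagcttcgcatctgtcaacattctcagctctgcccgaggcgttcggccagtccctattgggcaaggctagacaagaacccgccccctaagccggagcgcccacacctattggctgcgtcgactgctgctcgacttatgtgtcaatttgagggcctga
Mnt, chr11:74830674-74830923, plus strand: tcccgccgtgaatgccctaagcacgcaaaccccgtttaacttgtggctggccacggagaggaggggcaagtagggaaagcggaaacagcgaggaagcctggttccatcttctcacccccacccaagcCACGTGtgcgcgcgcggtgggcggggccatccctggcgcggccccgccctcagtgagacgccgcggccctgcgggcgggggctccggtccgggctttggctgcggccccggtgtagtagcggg
Mlx, chr11:101087040-101087289, plus strand: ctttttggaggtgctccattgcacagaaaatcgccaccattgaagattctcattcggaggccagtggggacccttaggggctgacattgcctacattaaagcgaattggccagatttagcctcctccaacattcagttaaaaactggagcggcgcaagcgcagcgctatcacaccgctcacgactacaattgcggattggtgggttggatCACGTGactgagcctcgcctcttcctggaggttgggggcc

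Myc, the MYC gene of most adult growing tissues, was at 57.9, 67.1 and 59.1 CPM in WT 1, 2 and 3. It was at 54.3, 59.6 and 42.0 CPM in PIN 1, 2 and 3, and at 45.6 and 73.8 CPM in PCa 1 and 2. PCa 1 was thus below all WT libraries and PCa 2 above them, and the 3 groups overlapped. The means were 61.4 ± 4.99 (SD, n = 3) in WT, 52.0 ± 9.02 (SD, n = 3) in PIN and 59.7 ± 20.0 (SD, n = 2) in PCa. The log2 fold change was -0.04 in PCa against WT, with a 95% interval of -0.65 to 0.57 and an adjusted p of 0.943 in edgeR's test. The interval leaves out a doubling and a halving of mean Myc RNA in these libraries, with a spread estimated over all 3 groups. The study itself reported higher c-Myc RNA in PCa than in PIN and WT tissue by qRT-PCR. It also reported staining for c-Myc protein in PCa tissue and no specific staining in normal prostate. In PIN against WT the log2 fold change was -0.24 (SE 0.23) and in PCa against PIN it was 0.20 (SE 0.26). Against WT the change in PCa was 0.28 without PCa 1, -0.41 without PCa 2 and 0.03 without WT 2, so single libraries set its direction.

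Mycn, a MYC gene of embryonic and neural tissue, was close to absent. It had 1, 0 and 0 counts in WT 1, 2 and 3, 5, 3 and 4 counts in PIN 1, 2 and 3, and 5 counts in each PCa library. All PIN and PCa libraries had more counts than the WT libraries, but no library passed 5 counts, and the level was at most 0.18 CPM. At this depth a difference could not be sized. Without the filter, the adjusted p of Mycn in PCa against WT was 0.205 in edgeR's test.

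**Figure D1:**
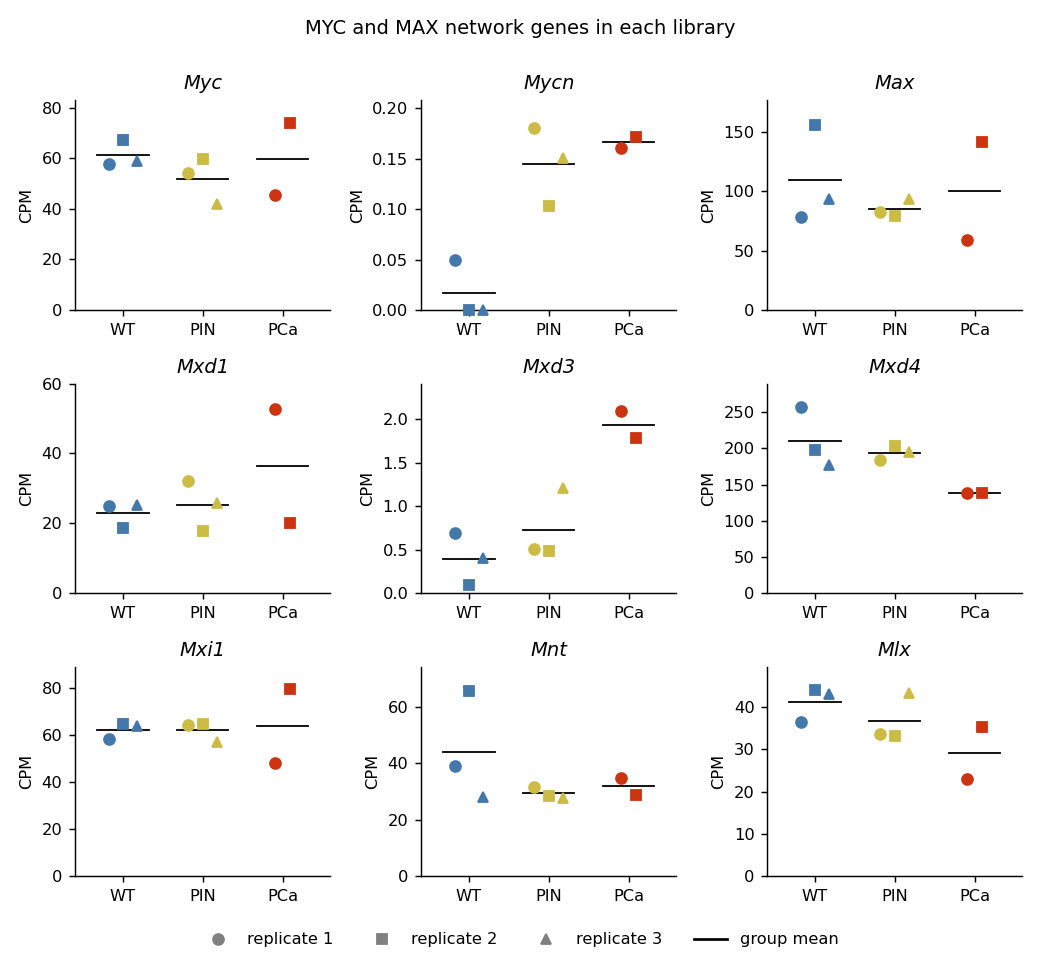
CPM of the 9 genes in each library, by group, with 1 panel per gene and the y axis starting at 0. Symbols mark the replicate number and bars the group mean: the PCa libraries of Mxd3 (1.78 and 2.09 CPM) lie above the other 6 libraries, those of Mxd4 (138 and 139 CPM) below them, and those of Myc on either side of WT.

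Mycl1, the remaining MYC gene expressed in these tissues, is not among the 9 but had larger fold changes than Myc. It was at 195, 129 and 279 CPM in WT, 196, 298 and 267 CPM in PIN and 77.9 and 100.02 CPM in PCa. Both PCa libraries were below all other libraries. The log2 fold change was -1.18 (SE 0.36) for PCa over WT and -1.51 (SE 0.37) for PCa over PIN, with adjusted p of 0.0861 and 0.0566 in edgeR's test, so that neither was called. DESeq2 called both, with adjusted p of 0.0186 and 0.00164. Over 15 alternatives it was called in 2 of 15 against WT and in 3 of 15 against PIN, which include the fit without WT 2 (adjusted p of 0.0436 and 0.0314). In TPM (counts divided by exon length and scaled to a sum of 1000000, so that genes can be compared), Mycl1 made up 56.5% to 76.0% of the summed level of Myc, Mycn and Mycl1 in WT, 70.7% to 81.0% in PIN, and 53.4% and 47.6% in PCa. Myc made up the rest but for at most 0.135%, with 46.4% and 52.3% in PCa, above the 18.9% to 43.5% of the 6 other libraries. Mycs, a MYC gene of rodents, had 0 counts in all 8 libraries.

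Max, which encodes the shared partner of the MYC, MXD and MNT proteins, was at 78.7, 156 and 93.9 CPM in WT, 82.6, 79.3 and 93.2 CPM in PIN and 58.7 and 141 CPM in PCa. WT 2 and PCa 2 were high and PCa 1 was low, and the groups overlapped. The means were 109 ± 40.9 (SD, n = 3) in WT, 85.0 ± 7.28 (SD, n = 3) in PIN and 100.02 ± 58.5 (SD, n = 2) in PCa. Against WT, the log2 fold change in PCa was -0.13, with a 95% interval of -1.10 to 0.83 and an adjusted p of 0.870 in edgeR's test. It was -0.88 without PCa 2, 0.38 without PCa 1 and 0.21 without WT 2. In PIN against WT it was -0.36 (SE 0.37) and in PCa against PIN 0.23 (SE 0.41).

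Mxd3, the MXD gene known for its expression in cells that replicate DNA, was the lowest of the MXD genes. Its counts were 14, 2 and 11 in WT, 14, 14 and 32 in PIN and 65 and 52 in PCa. These were 0.69, 0.09 and 0.40 CPM in WT, 0.50, 0.48 and 1.21 CPM in PIN and 2.09 and 1.78 CPM in PCa. Both PCa libraries were above all others, and WT and PIN overlapped. Only PCa 1, PCa 2 and PIN 3 were above 1 CPM, so the values below describe a gene that was tested because it was high in PCa. The log2 fold change in PCa against WT was 2.29 (SE 0.84), with a 95% interval of 0.34 to 4.23, an unadjusted p of 0.0268 and an adjusted p of 0.128 in edgeR's test. Over the other settings the adjusted p ranged from 0.0606 to 0.270, and the log2 fold change was 2.93 without WT 1 and 1.82 without WT 2. In PCa against PIN the log2 fold change was 1.40 (SE 0.81) with an adjusted p of 0.352, and in PIN against WT it was 0.88 (SE 0.77), with 1.53 without WT 1, 0.42 without WT 2 and 0.32 without PIN 3. It rested on few counts, and the proliferation markers differed in the same direction: 9 of 10 were called higher in PCa than in WT, beside 4.35% of all genes, and 8 of 10 higher than in PIN, beside 2.55%. The part of these markers in the values of Mxd3 was not tested.

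Mxd4, an MXD gene of resting and differentiated cells, was at 257, 197 and 178 CPM in WT, 184, 203 and 196 CPM in PIN and 138 and 139 CPM in PCa. Both PCa libraries were below all others. The means were 211 ± 41.6 (SD, n = 3) in WT, 194 ± 9.48 (SD, n = 3) in PIN and 139 ± 0.507 (SD, n = 2) in PCa. PCa over WT gave a log2 fold change of -0.61, with a 95% interval of -1.12 to -0.09, an unadjusted p of 0.0265 and an adjusted p of 0.127 in edgeR's test. It was -0.43 without WT 1, the highest library, with an adjusted p of 0.217 in that test, and -0.71 without WT 3. DESeq2 gave -0.58 with an adjusted p of 0.0367, which was not a call because the change was under the fold limit, and the adjusted p ranged up to 0.349 over the other settings. Against PIN it was -0.49 (SE 0.22) with an adjusted p of 0.240, and in PIN against WT -0.12 (SE 0.19). Of all genes tested, 19.6% were lower in both PCa libraries than in all WT libraries, so an ordering of this kind was common. The smooth muscle markers were likewise lower in both PCa libraries, 5 of 5 called, beside 4.18% of all genes called lower, as were the skeletal muscle markers, and their part in the values of Mxd4 was not tested.

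Mxd1, an MXD gene that rises as epithelial and blood cells differentiate, was at 24.8, 18.7 and 25.3 CPM in WT, 32.2, 17.7 and 25.9 CPM in PIN and 52.8 and 20.1 CPM in PCa. PCa 1 was the highest of the 8 libraries and PCa 2 lay within the WT range. PCa 1 was also the highest of the 8 in summed basal and leukocyte markers and PCa 2 the lowest, and their part in the values of Mxd1 was not tested. PCa over WT gave a log2 fold change of 0.67, with a 95% interval of -0.33 to 1.66 and an adjusted p of 0.356 in edgeR's test. Without PCa 1 it was -0.18, and without PCa 2 it was 1.22. It was 0.53 (SE 0.43) in PCa against PIN and 0.14 (SE 0.39) in PIN against WT.

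Mxi1, which encodes the MAX interactor also named MXD2, was at 58.2, 64.7 and 63.8 CPM in WT, 64.3, 64.7 and 57.0 CPM in PIN and 48.2 and 79.3 CPM in PCa. The PCa libraries were the lowest and the highest of the 8. Its group means were the closest of the 8 genes, at 62.2 ± 3.51 (SD, n = 3) in WT, 62.0 ± 4.34 (SD, n = 3) in PIN and 63.7 ± 22.0 (SD, n = 2) in PCa. PCa over WT gave a log2 fold change of 0.03, with a 95% interval of -0.52 to 0.59. It was -0.01 (SE 0.21) in PIN against WT and 0.04 (SE 0.24) in PCa against PIN, and upper-quartile scaling turned the sign of both.

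Mnt, the broadly expressed MAX partner that opposes MYC in growing and resting cells, was at 39.0, 65.6 and 28.0 CPM in WT, 31.6, 28.7 and 27.8 CPM in PIN and 34.9 and 28.9 CPM in PCa. WT 2 stood above the other 7 libraries, which overlapped. Its log2 fold change was -0.59 in PIN against WT, with a 95% interval of -1.31 to 0.13, and -0.47 in PCa against WT, with a 95% interval of -1.28 to 0.34. In PIN against WT it was -0.19 without WT 2, and in PCa against WT -0.07 without WT 2. In PCa against PIN it was 0.12 (SE 0.34).

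Mlx, the MAX-like partner of the MONDO factors, was at 36.5, 43.9 and 42.9 CPM in WT, 33.7, 33.0 and 43.1 CPM in PIN and 23.0 and 35.2 CPM in PCa. Both PCa libraries were below all WT libraries, and PCa 2 lay within the PIN range. Its log2 fold change in PCa against WT was -0.50, with a 95% interval of -1.09 to 0.10 and an adjusted p of 0.253 in edgeR's test. It was -0.33 (SE 0.25) in PCa against PIN and -0.17 (SE 0.23) in PIN against WT.

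Over the 8 genes, 1 (Mxd3, tested through its PCa values) was higher in both PCa libraries than in all WT libraries, beside 17.7% of all genes tested, and 2 (Mxd4 and Mlx) were lower, beside 19.6%. Against PIN, 1 (Mxd3) was higher, beside 21.1%, and 1 (Mxd4) was lower, beside 23.2%. Between PIN and WT, 0 of 8 did not overlap, beside 12.9% of all genes. For PIN over WT, PCa over WT and PCa over PIN, the 8 genes had median log2 fold changes of -0.14, -0.09 and 0.16, and all genes tested had -0.02, 0.01 and 0.07. Of the 3 genes with CACGTG in the promoter window, Mxd4 and Mlx were lower in both PCa libraries than in WT, and Mnt overlapped with WT.

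**Figure D2:**
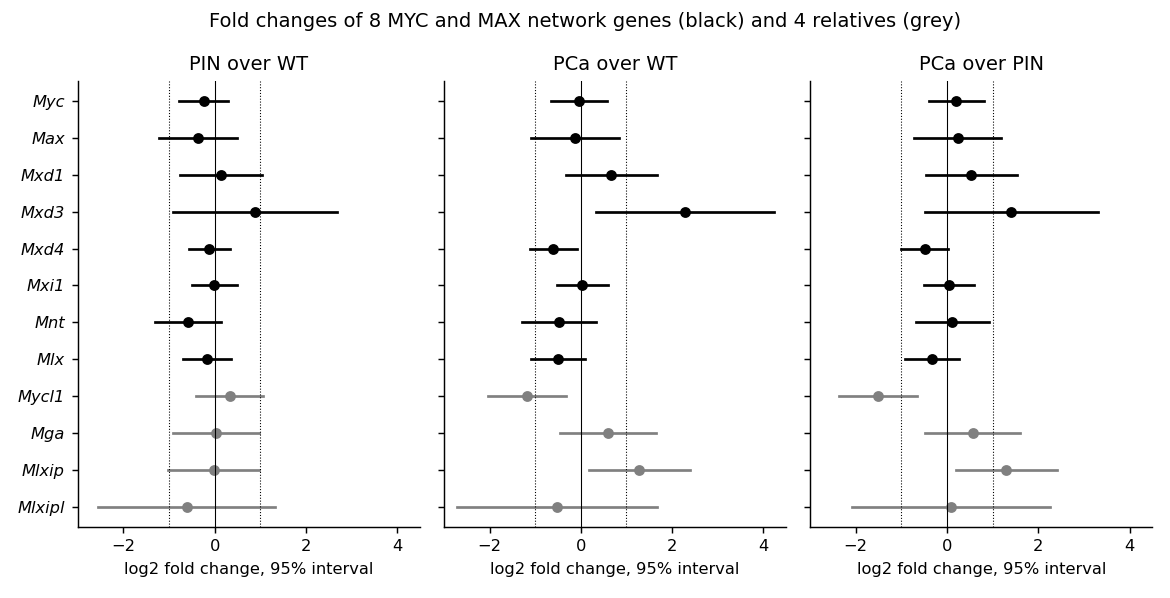
Log2 fold changes with 95% intervals from edgeR's quasi-likelihood fit for PIN over WT, PCa over WT and PCa over PIN, with the 8 genes tested in black and 4 other network genes in grey. Dotted lines mark a log2 fold change of -1 and 1, and among the 8 genes the interval leaves out 0 for Mxd3 and Mxd4 in PCa over WT.

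The PCa libraries disagreed in sign for 4 of the 8 genes when each was set against the WT mean on the log2(CPM + 0.5) scale. The difference was -0.42 in PCa 1 and 0.27 in PCa 2 for Myc, -0.83 and 0.43 for Max, 1.20 and -0.18 for Mxd1, and -0.36 and 0.35 for Mxi1. It had the same sign in PCa 1 and PCa 2 for the other 4 genes, at 1.59 and 1.41 for Mxd3, -0.59 and -0.58 for Mxd4, -0.25 and -0.52 for Mnt, and -0.82 and -0.21 for Mlx. The gap between PCa 1 and PCa 2 was thus larger than the difference of their mean from WT for Myc, Max, Mxd1, Mxi1 and Mlx.

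In length-scaled levels, Mxd4 and Max led in all groups. In WT, Mxd4 was at 164 ± 42.6 TPM and Max at 159 ± 34.7 TPM (SD, n = 3), and their ranges overlapped. Myc (67.7 ± 6.02 TPM) and Mlx (61.8 ± 9.56 TPM) followed and overlapped, as did Mxi1 (33.4 ± 4.89 TPM) and Mnt (27.6 ± 7.47 TPM). Mxd1 was at 15.1 ± 4.49 TPM, Mxd3 at 0.607 ± 0.476 TPM and Mycn at 0.0159 ± 0.0275 TPM. In PIN the order was the same, and Myc overlapped with Mlx, and Mnt with Mxd1. In PCa, Max (196 ± 119 TPM, SD, n = 2) came before Mxd4 (139 ± 4.33 TPM) and Mxd1 (30.1 ± 18.5 TPM) before Mnt (26.7 ± 2.80 TPM), but both neighbours overlapped, so the change of order was within the spread. Mxd3 stayed below the other genes but Mycn in each group, at 1.18 ± 0.613 TPM in PIN and 3.62 ± 0.308 TPM in PCa.

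**Figure D3:**
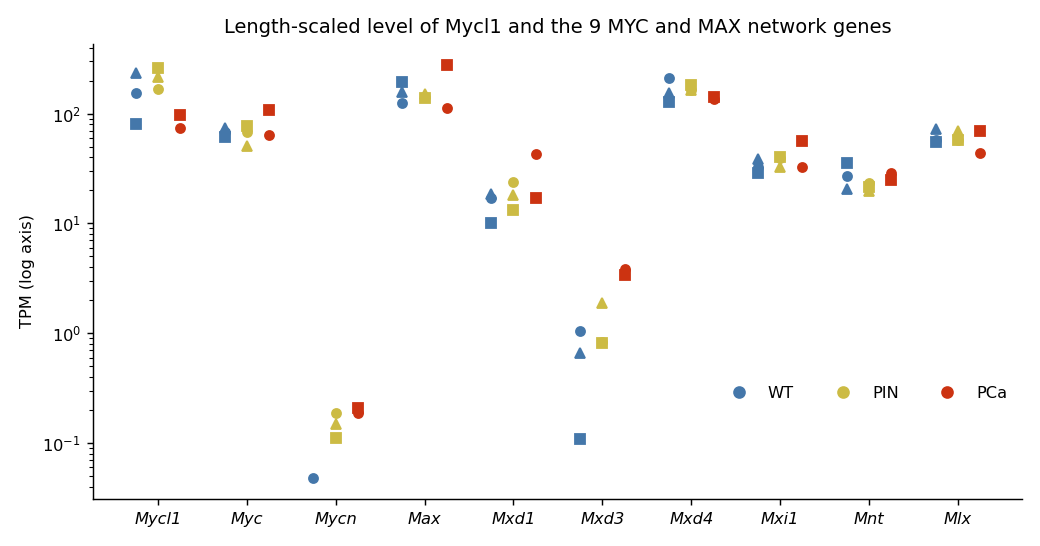
TPM of Mycl1 and the 9 genes in each library on a log axis, coloured by group, with circles, squares and triangles for replicates 1, 2 and 3 and values of 0 (Mycn in WT 2 and 3) not drawn. Max and Mxd4 lie above 100 TPM in every library, Mxd3 between 0.109 and 3.83 TPM and Mycn at or below 0.207 TPM.

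The summed TPM of the repressor partners (Mxd1, Mxd3, Mxd4, Mxi1 and Mnt) was divided by that of Myc and Mycn in each library, as a description of RNA levels without a test. The ratio was 4.25, 3.26 and 3.16 in WT 1, 2 and 3, 3.63, 3.37 and 4.69 in PIN 1, 2 and 3, and 3.81 and 2.25 in PCa 1 and 2. PCa 2 had the lowest ratio and PCa 1 lay within the range of WT. The means were 3.56 ± 0.603 (SD, n = 3) in WT, 3.90 ± 0.700 (SD, n = 3) in PIN and 3.03 ± 1.10 (SD, n = 2) in PCa, which differed by less than the spread of the PCa libraries. The repressor sum itself was 244 and 243 TPM in PCa 1 and 2, within the 201 to 288 TPM of WT, while the sum of Myc and Mycn was 64.2 and 108 TPM. With Mycl1 added to Myc and Mycn, an alternative chosen after its level was seen, the order of the means turned around, to 1.16 in WT, 0.909 in PIN and 1.48 in PCa.

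**Figure D4:**
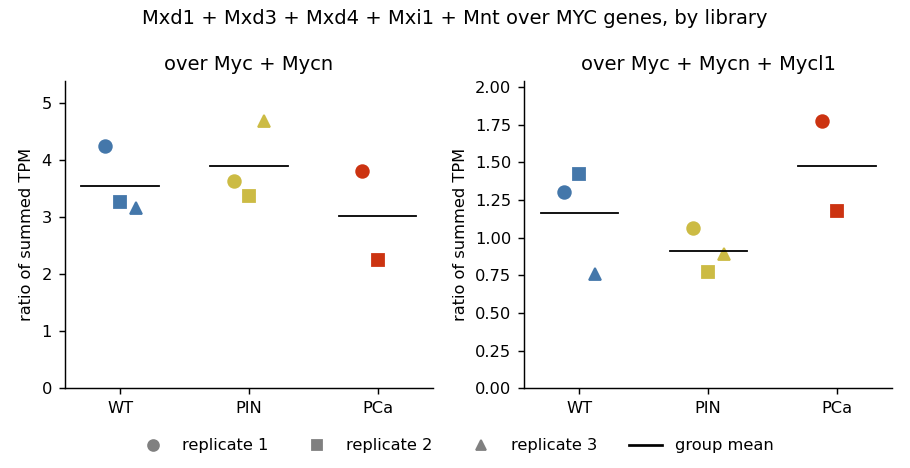
Ratio of the summed TPM of Mxd1, Mxd3, Mxd4, Mxi1 and Mnt to that of Myc and Mycn (left) and of Myc, Mycn and Mycl1 (right), by library, with the group mean as a bar and both axes starting at 0. PCa has the lowest mean on the left (3.03) and the highest on the right (1.48), and on both sides its libraries overlap with those of WT.

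The genes with the pattern most like that of Myc were Glcci1, Rbm33 and Vezt, by the root mean square difference of log2(CPM + 0.5) over the 8 libraries after centring each gene. The difference was 0.0914 for Glcci1, 0.108 for Rbm33 and 0.121 for Vezt, beside an SD of 0.266 for Myc itself. Rbm33, for example, was at 101 CPM in PCa 1 and 157 CPM in PCa 2, on either side of the 114 to 116 CPM of WT. The genes most like Mxd3 were Nup93, a nuclear pore protein (0.231), Gmnn, which encodes the replication licensing inhibitor geminin (0.231), and Spc24, a kinetochore protein (0.240), beside an SD of 0.725 for Mxd3. Gmnn was at 1.95 to 4.06 CPM in WT, 3.13 to 5.76 CPM in PIN, and 11.0 and 10.2 CPM in PCa. Likeness here describes 8 libraries and was chosen among all genes tested.

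Mga, Mlxip and Mlxipl, further genes of the network, were also tested. Mga, which encodes a dual-specificity MAX partner, was at 96.5, 156 and 106 CPM in WT, 112 to 128 CPM in PIN and 85.3 and 276 CPM in PCa, and its log2 fold change in PCa against WT was 0.59 (SE 0.45). Single libraries set that value as well, with 1.22 (adjusted p of 0.0296) without PCa 1 and -0.47 without PCa 2. Mlxip, which encodes the MLX partner MONDOA, was at 72.8, 83.5 and 68.0 CPM in WT, 69.2 to 76.7 CPM in PIN and 72.3 and 290 CPM in PCa. PCa 2 was thus the highest library for both genes, while PCa 1 was the lowest for Mga and within the WT range for Mlxip. The log2 fold change of Mlxip in PCa against WT was 1.28 (SE 0.48) with an adjusted p of 0.133 in edgeR's test, and it was 1.97 without PCa 1 (adjusted p of 0.00195) and -0.03 without PCa 2. Mlxip overlaps Gm15747 of the opposite strand by 3160 bases. Mlxipl, which encodes the MLX partner ChREBP of liver and fat, was at 3.51 CPM or less in every library, with a log2 fold change of -0.53 (SE 0.94) in PCa against WT. As background for MLX, Txnip, the best known MONDO target, was at 140 to 325 CPM in WT, 236 to 530 CPM in PIN and 600.1 and 681 CPM in PCa, with a log2 fold change of 1.57 (SE 0.44) and an adjusted p of 0.0680 against WT. The other MONDO targets tested were Pdk4, at 1.67 (SE 0.81) with 5.12 CPM in PCa 1 and 41.7 CPM in PCa 2, and Arrdc4, at 0.08 (SE 0.45), and in PCa against WT 0 of 3 were called by edgeR, beside 8.54% of all genes. DESeq2 called Txnip, beside 17.7% of all genes, and 1 of 3 had an unadjusted p under 0.05 in edgeR's test, beside 27.5%.

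Of 12 genes for MYC cofactors, 0 were called in PCa against WT, beside 8.54% of all genes, and 2 had an unadjusted p under 0.05, beside 27.5%. The median of their log2 fold changes there was 0.12. Against PIN, 1 of 12 was called in PCa, beside 5.72%, and 3 had an unadjusted p under 0.05, beside 22.8%. Over PIN, 11 of 12 fold changes were above 0, beside 7615 of 14034, with a median of 0.32, and 6 of 12 were higher in both PCa libraries than in all PIN libraries, beside 21.1%. For PIN over WT, 12 of 12 were below 0, beside 7295 of 14034, with a median of -0.19. These comparisons share the PIN libraries. This was Pim1, a kinase that works with MYC on chromatin, which was at 5.78, 6.89 and 3.04 CPM in WT, 3.85, 4.24 and 2.45 CPM in PIN and 14.4 and 20.4 CPM in PCa. Its log2 fold change was 2.31 (SE 0.44) against PIN, with an adjusted p of 0.0311, and 1.73 (SE 0.44) against WT, with an adjusted p of 0.0505 in edgeR's test, and DESeq2 and limma-trend called it in both. The call against PIN held in 9 of 15 alternatives and was lost in 5 of 8 that left out 1 library, with an adjusted p of 0.0512 without WT 1, 0.0936, 0.0962 and 0.126 without PIN 1, 2 and 3, and 0.061 without PCa 2. Other cofactors at the ends of the list in PCa against WT were Actl6a, of the BAF and TIP60 complexes, at 0.60 (SE 0.28), Kat5, the TIP60 acetyltransferase, at -0.53 (SE 0.22), and Ruvbl1 at -0.15 (SE 0.35). Of 12 genes for MYC turnover and stability, 1 was called in PCa against WT, beside 8.54% of all genes, with a median of -0.02, and 2 had an unadjusted p under 0.05, beside 27.5%. Against PIN, 0 of 12 were called in PCa by edgeR, beside 5.72%, and 4 had an unadjusted p under 0.05, beside 22.8%, while DESeq2 called 1, Skp2, beside 14.1%, and limma-trend called 0. The gene called was Skp2, a ubiquitin ligase subunit for MYC and p27, at 3.08 to 4.05 CPM in WT, 2.98 to 5.11 CPM in PIN and 7.95 and 25.0 CPM in PCa, with a log2 fold change of 2.15 (SE 0.51) and an adjusted p of 0.0434. PCa 2 was far above PCa 1 for Skp2, the change was 1.11 without PCa 2 and 2.76 without PCa 1, and the call held in 4 of 15 alternatives. Of the 8 that left out 1 library, it held without PCa 1, and the adjusted p of the other 7 was 0.0706 to 0.173. Stub1, at -0.75 (SE 0.24), and Fbxl14, at 1.02 (SE 0.49), were not called. Fbxl14 was at 26.2 CPM in PCa 1, below the 29.8 to 36.4 CPM of WT, and at 109 CPM in PCa 2, so its fold change rested on PCa 2.

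A list of 10 genes held corepressors through which the MXD proteins and MNT act, and also Zbtb17, the gene of a MYC partner. Of these 10, 0 were called in any comparison in edgeR's test, beside 8.54% of all genes for PCa over WT and 5.72% for PCa over PIN. At an unadjusted p under 0.05 there were 3 of 10 in PCa against WT (27.5% of all genes), 4 in PCa against PIN (22.8%) and 1 in PIN against WT (3.51%). DESeq2 called Sap30 and Sin3b in PCa against WT, beside 17.7% of all genes, and Sin3b in PCa against PIN, beside 14.1%, and limma-trend called 0. The median of their log2 fold changes was 0.21 for PCa over WT and 0.51 for PCa over PIN. Sap30, a SIN3 complex subunit, was at 3.99 to 6.23 CPM in WT, 6.13 to 10.5 CPM in PIN and 9.40 and 27.5 CPM in PCa, with a log2 fold change of 1.91 (SE 0.49) and an adjusted p of 0.0519 against WT. Sin3b, a SIN3 scaffold, was at 513 CPM in PCa 1 and at 52.1 to 76.1 CPM in the other 7 libraries, so its log2 fold change of 2.06 (SE 0.73, adjusted p 0.118) rested on PCa 1 and was -0.37 without it. Sap18, at -0.38 (SE 0.22), and Zbtb17, which encodes the MYC partner MIZ1, at -0.32 (SE 0.22), were the lowest.

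Of 25 MYC targets of ribosome production, 1 was called in PCa against WT, beside 8.54% of all genes, and 2 had an unadjusted p under 0.05, beside 27.5%. The median of the log2 fold changes was 0.13. The gene called was Fbl, the fibrillarin of the nucleolus, at 7.51 to 11.4 CPM in WT, 7.92 to 11.8 CPM in PIN and 22.2 and 25.1 CPM in PCa. Its log2 fold change was 1.24 (SE 0.30) against WT and 1.35 (SE 0.30) against PIN, with adjusted p of 0.0458 and 0.0460 in edgeR's test, and each call held in 4 of 15 alternatives. With 1 library left out, the call against WT held without PCa 1, with an adjusted p of 0.0642 to 0.103 without each of the others, and the call against PIN held without WT 2 and without PCa 1, with 0.0518 to 0.182 without the others. Npm1, at 0.49 (SE 0.40), was the next highest, and Rrp9, at -0.73 (SE 0.31), and Gar1, at -0.62 (SE 0.42), were the lowest. In PIN against WT, 24 of the 25 fold changes were below 0, with a median of -0.25, beside 7295 of all 14034 genes and a median of -0.02. Of these 0 were called by edgeR, DESeq2 or limma-trend, beside 0%, 0.278% and 0.00713% of all genes, and 2 of 25 had an unadjusted p under 0.05 in edgeR's test, beside 3.51%. In PCa against PIN, 24 of 25 were above 0, with a median of 0.41, beside 7615 of 14034 and a median of 0.07, and 1 (Fbl) was called, beside 5.72%. These comparisons share the PIN libraries. WT 2 had the highest sum of these genes, at 3241 CPM, beside 1472 and 2095 CPM in WT 1 and 3, 1805 to 2130 CPM in PIN and 2080 and 2882 CPM in PCa.

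Of 25 MYC targets of metabolism and growth, 24 were tested, and 1 was called higher and 1 lower in PCa against WT, beside 8.54% of all genes called, with a median of 0.01. An unadjusted p under 0.05 was found for 9 of 24, beside 27.5%. The gene called higher was Tfrc, the transferrin receptor for iron uptake, at 31.9, 33.7 and 56.1 CPM in WT, 58.6, 43.8 and 61.1 CPM in PIN and 110 and 213 CPM in PCa. Its log2 fold change was 1.99 (SE 0.36) with an adjusted p of 0.0210 in edgeR's test, and the call held in 13 of 15 alternatives. It was lost without WT 1, at an adjusted p of 0.0586, and in a model of only the 2 groups, at 0.0999. The gene called lower was Odc1, which encodes the first enzyme of polyamine synthesis, at 49.8, 54.7 and 39.1 CPM in WT, 34.1, 38.5 and 44.1 CPM in PIN and 21.6 and 20.8 CPM in PCa, and its call held in 8 of 15 alternatives. That call was lost without WT 1, without PIN 1, 2 or 3 and without PCa 2, at an adjusted p of 0.0504 to 0.0581, with the replicate block, at 0.0871, and in the 2-group model, at 0.120. Srm, the next enzyme of that pathway and also a MYC target, was at 58.3 to 80.1 CPM in WT and 21.7 and 38.8 CPM in PCa, with a log2 fold change of -1.21 (SE 0.34) and an adjusted p of 0.0694. Tert, the telomerase catalytic subunit, was at 0.36 to 1.46 CPM in WT, 1.58 to 2.05 CPM in PIN and 4.57 and 4.01 CPM in PCa, with a log2 fold change of 2.06 (SE 0.61) and an adjusted p of 0.0745. In PCa against PIN, 12 of the 24 were higher in both PCa libraries than in all PIN libraries, beside 21.1% of all genes, and 2 were lower, beside 23.2%. Against WT, 6 were higher in both PCa libraries, beside 17.7%, and 4 were lower, beside 19.6%. Over PIN, 9 of 24 had an unadjusted p under 0.05, beside 22.8%. In that comparison 1 of the 24 was called, beside 5.72%, Tfrc, at 1.56 (SE 0.36) with an adjusted p of 0.0487, a call held in 3 of 15 alternatives, and the median was 0.33. With 1 library left out this call held without PCa 1, and the adjusted p was 0.0536 to 0.158 without each of the others. For PIN over WT, 21 of 24 fold changes were below 0, beside 7295 of all 14034 genes, and the median was -0.30. There 0 of 24 were called by edgeR, DESeq2 or limma-trend, beside 0%, 0.278% and 0.00713% of all genes, and 1 had an unadjusted p under 0.05 in edgeR's test, beside 3.51%. WT 2 again had the highest sum, at 3332 CPM, beside 2059 and 2177 CPM in WT 1 and 3, 1738 to 2112 CPM in PIN and 1878 and 2794 CPM in PCa. DESeq2 called 5 of the 24 genes in PCa against WT, beside 17.7% of all genes, with Shmt1, Srm and Tert besides Tfrc and Odc1, and 4 in PCa against PIN, beside 14.1%, with Cad, Pcna and Shmt1 besides Tfrc.

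**Figure D5:**
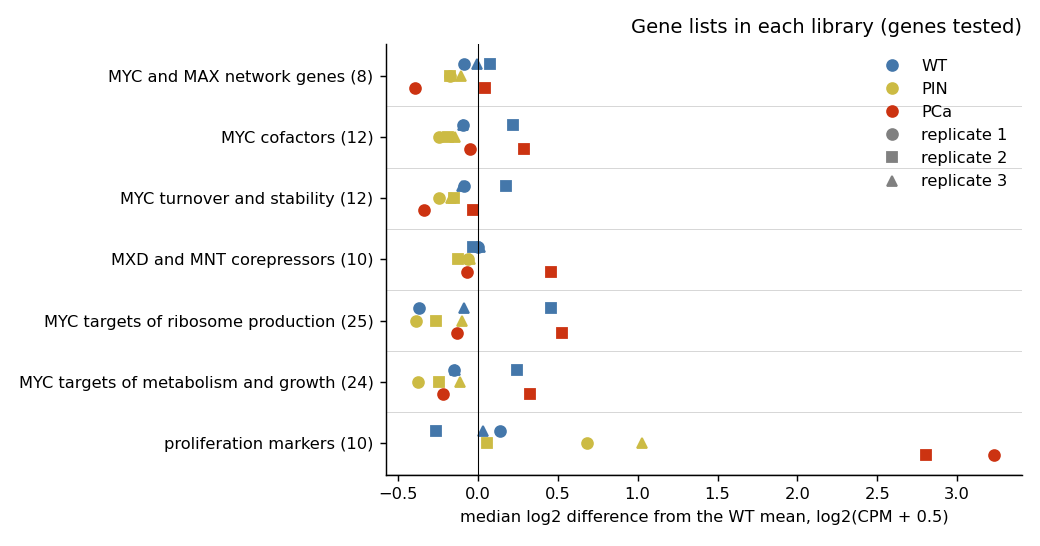
Median difference from the WT mean in log2(CPM + 0.5) over the tested genes of each list, by library, with colours for groups, symbols for replicates and the number of genes in parentheses. The proliferation markers of PCa lie at 3.23 and 2.81, while the 8 MYC and MAX network genes lie between -0.39 and 0.08 in all 8 libraries and the lists of MYC targets between -0.39 and 0.53.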

How the data were processed

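Total RNA of 3 WT, 3 PIN and 2 PCa mouse prostate tissues, 1 library per tissue, was depleted of ribosomal RNA and sequenced as paired ends. Per the labels' processing notes, the authors used cutadapt 1.9.1, HISAT2 2.1.0 and HTSeq 0.6.1 with mm9, and the deposited values are raw counts per gene with each gene's exon length. Groups come from the labels. In R 4.3.3, the 14034 genes above 1 CPM in 2 or more libraries were kept, with CPM from total counts before TMM scaling. All 8 libraries were fitted in 1 model of 3 groups with edgeR 4.0.16 (TMM, quasi-likelihood F-test, 5 residual degrees of freedom, p-values adjusted over all tested genes with the Benjamini-Hochberg method). SEs were taken from the fold change and F. TPM used the exon lengths in the table. The common biological coefficient of variation was 0.489. On simulated counts with 4-fold changes and a coefficient of 0.3, edgeR called 185 of 199 changed genes in PCa against WT. The simulated counts varied less than these data (0.3 against 0.489), so this share does not show how many real changes would be called here. Alternatives were upper-quartile scaling, DESeq2 1.42.0, limma 3.58.1, other filters, a 2-group model, a replicate block and leaving out each library. The genes and lists were chosen with earlier results of these data known. Named genes were all 9 genes and their relatives, of each list the called genes and the 2 highest and 2 lowest in PCa against WT, and the 3 genes most like Myc and Mxd3. Of the items these choices cover, 2 are not reported here. No other sample's columns were used.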

Additional observations from a re-analysis of the deposited data

How the results depend on the processing

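Settings tried were upper-quartile scaling, DESeq2, limma-trend, no filter, edgeR's filterByExpr, a model of the 2 groups compared, the replicate block and each library left out. In all of them, 0 of the 8 genes were called in each comparison, with Mxd3 not tested for PIN against WT in the 2-group model. Dropping the fold limit was tried in the main fit only, and 0 of 8 were called there too. In DESeq2, the fold limit alone kept Mxd4 from a call in PCa against WT (adjusted p of 0.0367). Of 167 log2 fold changes under settings that keep all libraries, 158 kept their sign and side of the threshold and 9 changed sign, all near 0. For Mxi1 in PIN against WT these were 0.057 with upper-quartile scaling, 0.0031 with DESeq2 and 0.0012 in the 2-group model. In PCa against WT, Mxi1 was at -0.0081 with limma-trend, and in PCa against PIN it was at -0.011 with upper-quartile scaling and -0.0022 with limma-trend. Deviations from the group means had a mean correlation of 0.0875 (-0.0463 to 0.273) over 7 pairs of samples with the same replicate number. Over 14 other pairs between groups it was -0.0446 (-0.273 to 0.162). The deviations of the 2 PCa libraries mirror each other, so these pairs are not independent. The check cannot decide whether the numbers pair the samples. With the replicate block, Mxi1 was at -0.016 against WT and -0.013 against PIN in PCa, Mnt at -0.048 in PCa against PIN, and over all genes 413 were called in PCa against WT and 151 against PIN, beside 1198 and 803 without it. DESeq2 called 2487 and 1984 genes, and the 2-group model 130 and 388, and with 1 library left out edgeR called 347 (without WT 3) to 2477 (without PCa 1) and 78 (without PIN 3) to 2251 (without PCa 1). The cause of these sign changes was not tested.

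Of 192 values with 1 library left out, 174 kept their sign and 18 did not. The ranges were -0.086 to 0.34 for Mxd1, -0.23 to 0.052 for Mxd4 and -0.049 to 0.053 for Mxi1 in PIN against WT. In PCa against WT they were -0.41 to 0.28 for Myc, -0.88 to 0.38 for Max, -0.18 to 1.22 for Mxd1 and -0.35 to 0.36 for Mxi1. In PCa against PIN they were -0.17 to 0.52 for Myc, -0.51 to 0.75 for Max, -0.32 to 1.09 for Mxd1, -0.34 to 0.37 for Mxi1 and -0.0077 to 0.27 for Mnt. Where a PCa library was left out, the spread of the lone library was taken from the other groups. The ratio of repressor to MYC levels was 5.57 in WT, 6.10 in PIN and 4.84 in PCa with CPM in place of TPM, which keeps the longer repressor genes' reads undivided. With Mycl1 added it was 1.16, 0.909 and 1.48. With 1 library left out the ratio was 3.21 to 3.76 in WT, 3.50 to 4.16 in PIN and 2.25 to 3.81 in PCa.

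The PCa group has only 2 libraries, which limits each comparison with it, and the few counts of Mxd3 and Mycn limit theirs. P-values measure the spread between these tissues only.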
